A study of Mus musculus with 8 samples.

Results

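The Schlafen genes are a family of interferon-inducible genes, and 7 of them, Slfn1, Slfn2, Slfn3, Slfn4, Slfn5, Slfn8 and Slfn9, were followed here in tumor-associated macrophages (TAMs). The members were taken by their gene symbol from tables that list 21051 genes, and all 7 had a value in all 8 libraries. RNA-Seq had been performed on CD45+F4/80+ cells sorted from B16 melanomas, a transplanted mouse melanoma cell line grown under the skin, on day 14 after the injection. The 4 WT libraries came from C57BL/6 WT littermates and the 4 Colec11-/- libraries from mice that lack Colec11 in all cells, the gene of collectin-11 (CL-11), a secreted lectin of the complement system. Mice of both groups were males of 8 to 10 weeks, the Colec11-/- line had been back-crossed onto C57BL/6, and every mouse carried the same tumor. Each library was taken as 1 mouse, and p-values measure the spread between these libraries. The purity of the sort was not checked here except by marker genes.

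Schlafen proteins share a conserved N-terminal core that, in several members, binds and cleaves transfer RNA. The family was first described in developing T cells, where levels change as cells leave or enter rest, and many members are induced by type I interferon in macrophages. The short members Slfn1 and Slfn2 hold little more than the core, Slfn3 and Slfn4 are of middle length, and the long members Slfn5, Slfn8 and Slfn9 add a helicase-like domain. Interferons act through the kinases Jak1, Jak2 and Tyk2, which activate STAT proteins. Stat2 acts with Irf9 in a complex that binds the interferon-stimulated response element (ISRE), and the gamma-activated site (GAS) is the element of interferon gamma signaling.

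The family lies together on chromosome 11. In the RefSeq annotation of GRCm38.p6, the cluster from Slfn5 to Slfn14 spans 335 kb, from 82951349 to 83286726, in the order Slfn5, Slfn9, Slfn8, Slfn10-ps, Slfn2, Slfn1, Slfn4, Slfn3 and Slfn14. Slfn9 and Slfn8 are on the minus strand and the other 5 members are on the plus strand. Slfn5 occupies 82951349 to 82964850, Slfn9 82974316 to 82991830 and Slfn8 83002125 to 83020810. Slfn2 occupies 83065112 to 83070678, Slfn1 83116820 to 83122670, Slfn4 83175172 to 83190216 and Slfn3 83191330 to 83215154. An antisense gene, Slfn5os, overlaps Slfn5, and the strand setting of the counting is not given in the sources used here, so reads of the pair cannot be told apart.

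The promoters differ within the cluster, and 5 of them are shown because they belong to the members with the largest fold changes or hold an interferon motif. Each line gives 120 bases from the RefSeq promoter window (GRCm38.p6) before a transcript start, 5′ to 3′ on the gene's strand. The start used for Slfn5 lies inside the gene, so its stretch does too. Capitals mark the ISRE core (GAAA, any 2 bases, GAAA), on either strand, in Slfn5, Slfn9 and Slfn8, and the ETS-type motif ACTTCCTG in Slfn1 and Slfn4. None of the marked motifs overlap.
Slfn5, chr11:82951865-82951984, plus strand: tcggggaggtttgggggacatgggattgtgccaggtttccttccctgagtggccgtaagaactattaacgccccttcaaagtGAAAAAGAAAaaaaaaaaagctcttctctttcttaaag
Slfn9, chr11:82991831-82991950, minus strand: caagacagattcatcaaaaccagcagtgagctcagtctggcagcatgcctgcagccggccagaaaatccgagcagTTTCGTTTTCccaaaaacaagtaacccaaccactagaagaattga
Slfn8, chr11:83020811-83020930, minus strand: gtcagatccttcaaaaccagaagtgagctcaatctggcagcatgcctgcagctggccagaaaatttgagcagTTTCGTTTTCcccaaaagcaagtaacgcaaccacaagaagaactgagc
Slfn1, chr11:83116700-83116819, plus strand: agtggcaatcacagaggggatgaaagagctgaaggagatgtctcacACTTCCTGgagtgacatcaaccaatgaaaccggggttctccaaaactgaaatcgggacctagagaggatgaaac
Slfn4, chr11:83175052-83175171, plus strand: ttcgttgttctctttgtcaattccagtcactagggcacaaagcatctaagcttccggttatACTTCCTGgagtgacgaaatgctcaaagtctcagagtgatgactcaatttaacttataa
The stretches of Slfn9, Slfn8 and Slfn1 end at the base before the gene. That of Slfn4 ends 15 bases before the transcript start used, and that of Slfn5 covers bases 237 to 118 before it, within an intron of a longer transcript in the GENCODE annotation. The Slfn9 and Slfn8 stretches were alike at 105 of 123 aligned columns (85.4%), whereas the next most alike pair of the 7 members, Slfn9 and Slfn1, reached 50.4%. In the 250 bases before the start, the ISRE core was found in 3 of the 7 members, at positions -155, -45 and -48 of Slfn5, Slfn9 and Slfn8. It was found in 2.98% of 32851 RefSeq promoter windows of the same length. The match in Slfn5 lies in a run of adenines. The GAS core TTCNNNGAA (7.02% of windows) and an NF-kB motif (GGGA, any 2 bases, TTCC; 1.21% of windows) had no match in the windows of the 7 members. ACTTCCTG, which was chosen after the sequences were seen, was found in Slfn1, Slfn2, Slfn4 and Slfn3, and in 2.69% of all windows. A match is a string of letters and not a measured binding site.

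TAMs of both groups expressed all 7 members, at levels that differed widely. Levels between genes were compared as FPKM, a fragment count corrected for the length of the transcript and the depth of the library. Slfn2, which is needed for resting T cells and monocytes and protects transfer RNA from cleavage, stood far above the other members, with a mean of 154 ± 37.1 FPKM in WT and 149 ± 7.71 FPKM in Colec11-/- TAMs (SD, n = 4 each). In WT, Slfn5 followed at 24.1 ± 8.73 FPKM, Slfn4 at 17.0 ± 6.84 FPKM, Slfn1 at 14.9 ± 6.33 FPKM and Slfn8 at 12.03 ± 4.33 FPKM (SD, n = 4 each). Neighbours in this order of 4 genes overlapped within their SD, but the SD between libraries ignores that the genes share libraries. Slfn5 was above Slfn4, and Slfn1 above Slfn8, in every WT library, while Slfn4 was below Slfn1 in WT replicate 1. Slfn3 and Slfn9 were lowest in WT, at 6.57 ± 0.575 and 6.57 ± 0.691 FPKM (SD, n = 4 each). In Colec11-/- TAMs, Slfn4 stood next after Slfn2 at 37.9 ± 3.11 FPKM, beside Slfn5 at 34.7 ± 3.74 FPKM, and Slfn1 and Slfn8 followed at 28.6 ± 3.49 and 22.8 ± 3.13 FPKM (SD, n = 4 each). Each of these 4 overlapped the next within its SD, although Slfn5 was above Slfn1, and Slfn1 above Slfn8, in every Colec11-/- library. Slfn9 at 9.44 ± 2.15 FPKM and Slfn3 at 7.5025 ± 0.794 FPKM were again lowest and overlapped each other (SD, n = 4 each). Slfn9 was above Slfn3 in every Colec11-/- library. Slfn14 was at 0 to 0.02 FPKM and Slfnl1 at 0 to 0.12 FPKM, and both were too low to be tested.

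**Figure D1:**
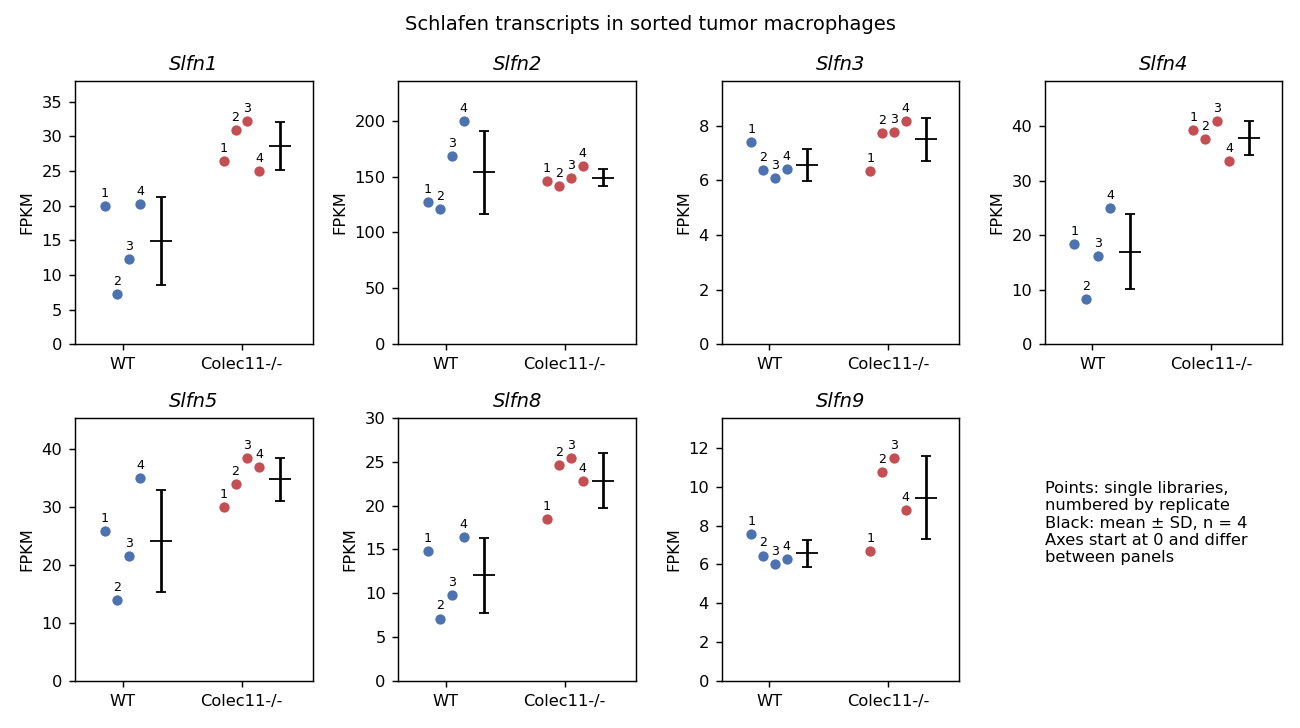
FPKM of the 7 Schlafen genes in each of the 4 WT and 4 Colec11-/- libraries, with points numbered by replicate and the mean ± SD of each group in black; each axis starts at 0 and has its own scale. For Slfn1, Slfn4 and Slfn8 all Colec11-/- libraries lie above all WT libraries, WT replicate 2 is lowest for Slfn1, Slfn4, Slfn5 and Slfn8, and Slfn2 ranges from 121 to 199.6 FPKM in WT.

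Slfn4 was the only member called higher in Colec11-/- TAMs by edgeR, the main test used here. It is an interferon-induced myeloid member, also known from suppressive myeloid cells of the inflamed stomach. Its level was 18.4, 8.35, 16.2 and 24.9 FPKM in WT replicates 1 to 4 and 39.3, 37.7, 40.9 and 33.6 FPKM in Colec11-/- replicates 1 to 4. The groups did not overlap, WT replicate 2 was lowest, and the highest WT library stayed below the lowest Colec11-/- library. The log2 fold change was 1.03 ± 0.27 (SE), a 2.05-fold rise, with an adjusted p of 0.0428 from edgeR's quasi-likelihood test with Benjamini-Hochberg adjustment. A gene was called at an adjusted p of at most 0.05. By this rule 1 of the 7 members was called higher and 0 lower, where 4.58% of 12412 genes tested were called higher, 5.24% lower and 9.81% in either direction. The 1 member also passed a fold change of at least 2, as did 1.41% of genes on the higher side. An unadjusted p under 0.05 was found for 4 of the 7 and for 30.7% of all genes. DESeq2 and limma voom each called 4 members higher and 0 lower, where they called 8.71% and 14.7% of all genes higher and 18.2% and 29.2% in either direction. In bulk samples, fewer cells of a type and less RNA per cell cannot be told apart, and this holds for each result below.

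The call of Slfn4 held in 2 of the 8 edgeR fits that left out 1 library. In these fits the adjusted p was 0.0058 without WT replicate 2 and 0.0345 without WT replicate 4. It was 0.0643 without WT replicate 1, 0.109 without WT replicate 3, and 0.0813, 0.117, 0.118 and 0.0575 without Colec11-/- replicates 1 to 4. The log2 fold change stayed between 0.80 and 1.29 in these 8 fits. The calls over all genes also moved, from 9.81% in either direction with all libraries. Without WT replicates 1 to 4 they were 9.31%, 22.2%, 1.21% and 3.34%. Without Colec11-/- replicates 1 to 4 they were 5.47%, 0.617%, 0.617% and 9.07%.

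Slfn1 and Slfn8 had the next largest differences and did not pass. Slfn1, the founding member, slows the growth of developing T cells when overexpressed. It was at 19.96, 7.20, 12.2 and 20.2 FPKM in WT replicates 1 to 4 and at 26.4, 30.9, 32.2 and 25.0 FPKM in Colec11-/- replicates 1 to 4. All Colec11-/- libraries were above all WT libraries, and WT replicate 2 was again lowest. Slfn1 differed by 0.83 ± 0.27 (SE) on the log2 scale (edgeR adjusted p = 0.0762). Slfn8 is a long member expressed in immune cells. It was at 14.8, 7.12, 9.78 and 16.4 FPKM in WT and at 18.4, 24.7, 25.4 and 22.8 FPKM in Colec11-/- replicates 1 to 4. The groups did not overlap, although WT replicate 4 and Colec11-/- replicate 1 were close. Slfn8 differed by 0.81 ± 0.23 (SE) on the log2 scale (edgeR adjusted p = 0.0557). Both genes passed by edgeR without WT replicate 2, where the adjusted p was 0.0237 for Slfn1 and 0.0265 for Slfn8, and Slfn8 also passed without WT replicate 4, at 0.0465.

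On both the FPKM and the normalised count scale, 3 of the 7 members, Slfn1, Slfn4 and Slfn8, had every Colec11-/- library above every WT library. Among 9396 genes tested on 8 libraries, 12.3% did so in FPKM and 7.8% in CPM, counts normalised to the library size.

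Slfn5 and Slfn9, the other long members, had smaller differences. Slfn5 is a nuclear member that is induced by type I interferon. Its level was 25.9, 14.0, 21.5 and 34.9 FPKM in WT and 29.9, 33.8, 38.4 and 36.7 FPKM in Colec11-/- replicates 1 to 4. WT replicate 4 lay within the Colec11-/- range, and WT replicate 2 was the lowest of the 8. For Slfn5 the log2 fold change was 0.41 ± 0.24 (SE; edgeR adjusted p = 0.273). Slfn9 was at 7.57, 6.46, 6.00 and 6.26 FPKM in WT and at 6.70, 10.8, 11.5 and 8.80 FPKM in Colec11-/- replicates 1 to 4. Colec11-/- replicate 1 lay inside the WT range while the other 3 Colec11-/- libraries were above it. The log2 fold change of Slfn9 was also 0.41, with a smaller SE of 0.13 (edgeR adjusted p = 0.0676), and it passed without WT replicate 1 (edgeR adjusted p = 0.0413).

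Slfn2 and Slfn3 did not pass, and their groups overlapped. Slfn2 was at 127, 121, 168 and 199.6 FPKM in WT and at 146, 142, 148.5 and 160 FPKM in Colec11-/- replicates 1 to 4. The WT libraries lay on both sides of the Colec11-/- range. For Slfn2 the log2 fold change was -0.16 ± 0.17 (SE; edgeR adjusted p = 0.562), and it was 0.0031 without WT replicate 4. Slfn3, a mouse member known from differentiation of the gut epithelium, was at 7.4, 6.38, 6.08 and 6.41 FPKM in WT and at 6.35, 7.72, 7.77 and 8.17 FPKM in Colec11-/- replicates 1 to 4. Its libraries kept within a narrow range in both groups. For Slfn3 the log2 fold change was 0.09 ± 0.11 (SE; edgeR adjusted p = 0.629).

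**Figure D2:**
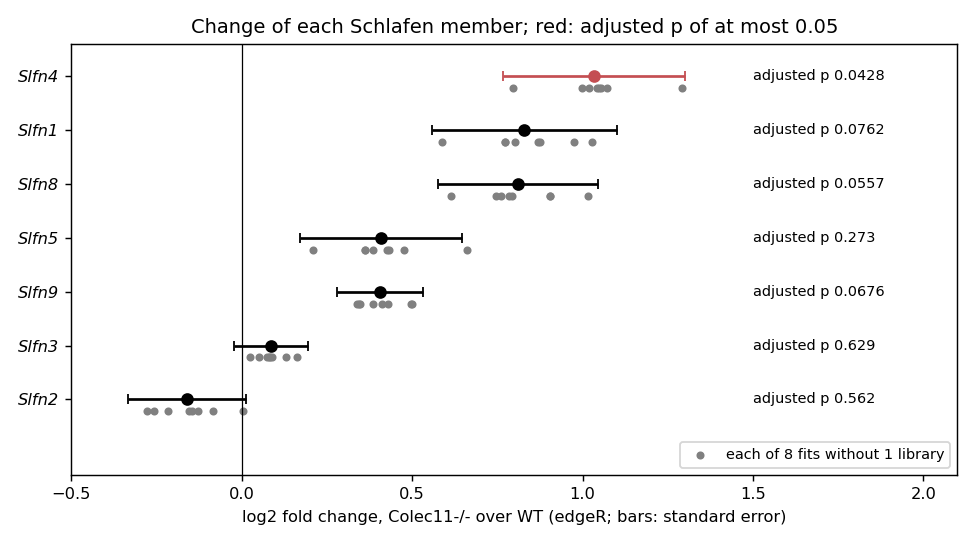
Log2 fold change of each Schlafen gene, Colec11-/- over WT, with its standard error from edgeR on all 8 libraries; grey points are the 8 fits that each left out 1 library, and red marks an adjusted p of at most 0.05. Slfn4 is the 1 red point at 1.03, Slfn1 and Slfn8 lie at 0.83 and 0.81, and the grey points of Slfn2 reach from -0.28 to just above 0.

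In all, 6 of the 7 members had a positive log2 fold change and the median was 0.41. Over all 12412 genes tested, 6244 were positive and the median was 0.00. With limma on log2(FPKM + 0.1), the median of all genes was 0.11, so FPKM ratios between the groups run slightly above those of the counts.

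The spread of 5 members was wider in WT than in Colec11-/- TAMs. The coefficient of variation of the FPKM was 42.5% in WT and 12.2% in Colec11-/- for Slfn1, and 40.3% and 8.21% for Slfn4. It was 36.3% and 10.8% for Slfn5, 36.0% and 13.7% for Slfn8, and 24.1% and 5.17% for Slfn2. Slfn3 and Slfn9 went the other way, with 8.75% and 10.6% for Slfn3 and 10.5% and 22.8% for Slfn9. These are descriptions of 4 libraries a group, and the difference in spread was not tested.

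The make-up of the family's transcripts followed from these differences. The summed FPKM of the 7 members was 235 ± 57.3 in WT and 290.0 ± 13.3 in Colec11-/- TAMs (SD, n = 4 each), and the groups overlapped. Without Slfn2 the sum was 49.5 to 109 FPKM in WT and 127 to 156 FPKM in Colec11-/- TAMs, with no overlap. Slfn2 made up 57.4% to 70.9% of the family sum in WT and 48.7% to 54.2% in Colec11-/- TAMs. Slfn4 made up 4.91% to 8.35% in WT and 11.4% to 14.4% in Colec11-/- TAMs. Both shares were separate between the groups. Slfn4 reached 6.92% to 14.5% of the Slfn2 level in WT and 21.1% to 27.5% in Colec11-/- TAMs.

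**Figure D3:**
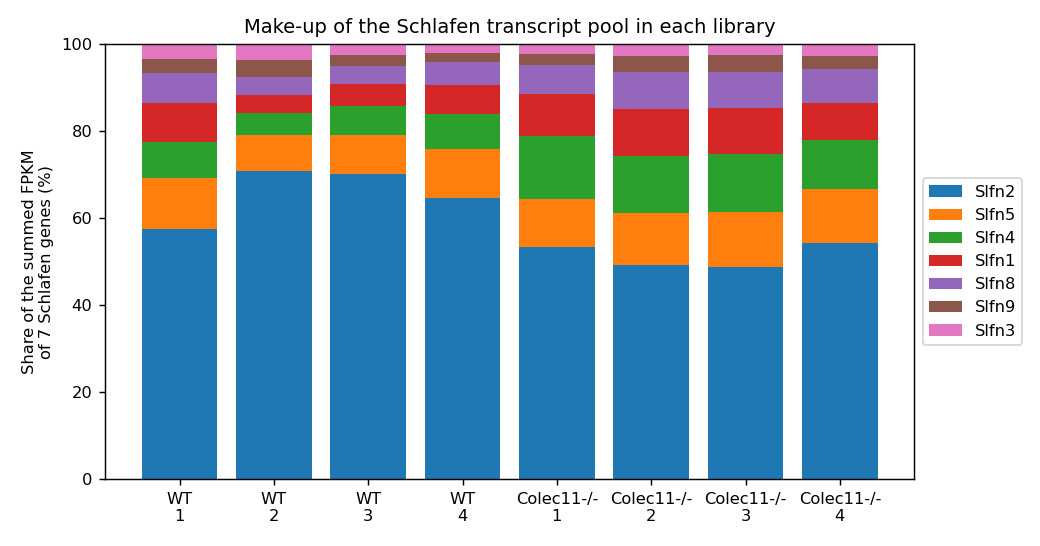
Share of the summed FPKM of the 7 Schlafen genes (%) taken by each gene, with 1 bar for each of the 8 libraries. Slfn2 takes the most in every library, 57.4% to 70.9% in WT and 48.7% to 54.2% in Colec11-/-, and Slfn4 takes 4.91% to 8.35% in WT and 11.4% to 14.4% in Colec11-/-.

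Sequence shared between copies can move reads from one member to another. Of all 50-base stretches of the GENCODE transcripts, 14.6% of Slfn8, 11.5% of Slfn9, 15.6% of Slfn3 and 10.8% of Slfn4 also occurred in another gene, against 0.606% of Slfn1. Slfn8 and Slfn9 shared 389 such stretches with each other and more with the pseudogene Slfn10-ps, and Slfn3 and Slfn4 shared 252. The read length is not given in the sources used here. At 100 bases the shares were 3.38%, 3.71%, 2.92% and 0.271% for Slfn8, Slfn9, Slfn3 and Slfn4. The values of Slfn8, Slfn9, Slfn3 and Slfn4 are therefore less certain than that of Slfn1. Summed over the pair, Slfn8 and Slfn9 were at 13.6 to 22.7 FPKM in WT and at 25.1 to 36.9 FPKM in Colec11-/- TAMs, and Slfn3 and Slfn4 at 14.7 to 31.4 FPKM and at 41.8 to 48.7 FPKM. Neither sum overlapped between the groups, and Slfn4 made up most of the second sum. For Slfn9, 1 FPKM stood for 104 to 138 reads depending on the library, whereas for Slfn4 it stood for 60.1 to 63.8 reads, so the FPKM of Slfn9 did not follow its reads alone.

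Members with the larger differences also varied together across libraries. Over the 8 libraries, the correlation of log2 CPM was 0.97 between Slfn1 and Slfn4, 0.98 between Slfn1 and Slfn8 and 0.95 between Slfn4 and Slfn8. Slfn5 had values of 0.91 to 0.93 with these 3 genes. Slfn2 reached at most 0.49, with Slfn5, and was at -0.38 with Slfn9. Both groups enter these values, so the difference between groups is part of them, and they are given as a description. Within the 4 WT libraries alone, Slfn2 was at 0.78 with Slfn4, 0.76 with Slfn5, 0.57 with Slfn8 and 0.54 with Slfn1. It was at 0.05 with Slfn3 and at -0.42 with Slfn9.

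The genes most like each member were taken by Pearson's r of log2 CPM over the 7 libraries that hold all genes. For Slfn8 they were Oasl2 (0.998), Pnp and Trim21 (0.996 each), and for Slfn4 they were Etv6 (0.994), Fcgr1 (0.993) and Irf9 (0.992). Oasl2 belongs to the interferon-induced oligoadenylate synthetase family, Trim21 is a cytosolic antibody receptor, and Fcgr1 encodes the high-affinity IgG receptor CD64. For Slfn1 they were Ifi203, Ifi213 (0.996 each) and C3 (0.995), of which Ifi203 and Ifi213 are interferon-inducible DNA sensors of the p200 family. For Slfn5 they were Mmp14 (0.992), Fam83f (0.986) and Aftph (0.983), and for Slfn9 Pvrig (0.997), Slco3a1 (0.990) and Cadm1 (0.988). Slfn2 and Slfn3 had other partners. They were Msl2 (0.982), Brd2 (0.981) and Gpr137b (0.961) for Slfn2, and Zfp319 (0.972), Ficd (0.958) and Ppp1r13b (0.956) for Slfn3. With so few libraries, high values arise among many genes, and the ranks are a description. The libraries come from both groups, so the difference between groups is part of these values. By log2(FPKM + 1), Etv6, Pnp, Trim21, Mmp14, Aftph, Msl2, Gpr137b, Ficd and Ppp1r13b were not among the 3 most alike. The same held for Pvrig, Slco3a1 and Cadm1, and Pvrig was low, at a mean of 0.56 FPKM in WT and 1.52 FPKM in Colec11-/- TAMs.

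**Figure D4:**
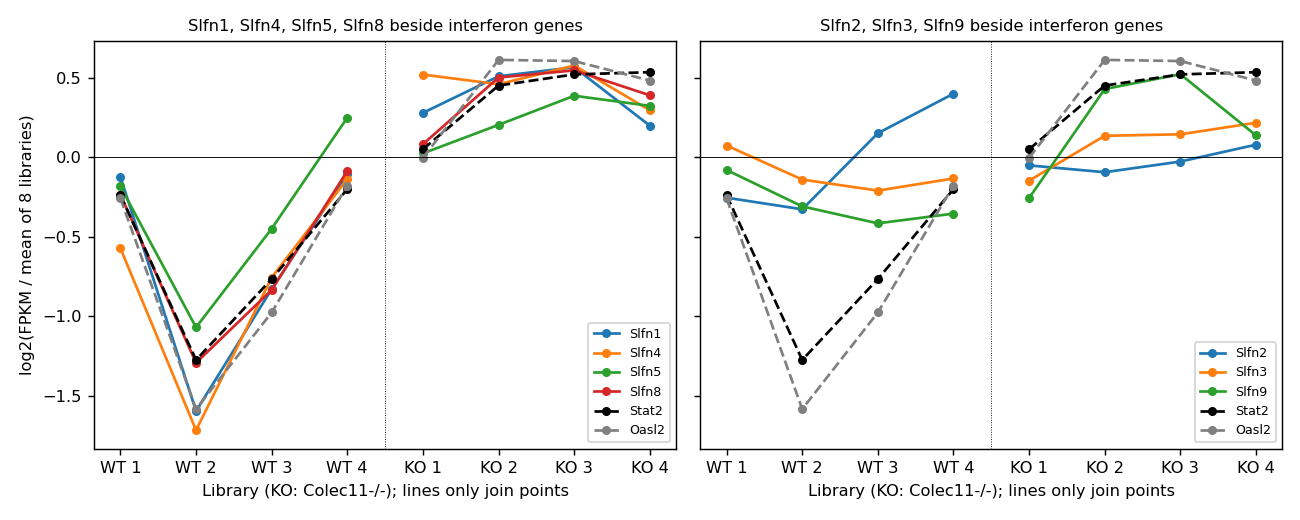
Level of the Schlafen genes and of Stat2 and Oasl2 in each library, as log2 of the FPKM over the mean of the 8 libraries (KO marks Colec11-/-; lines only join points of a group). Slfn1, Slfn4, Slfn5 and Slfn8 on the left are lowest in WT replicate 2, as are Stat2 and Oasl2, and Slfn2, Slfn3 and Slfn9 on the right keep within a narrower range.

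The interferon pathway was examined beside the family. Of 14 genes of interferon receptors and JAK-STAT signaling, 4 rose (Tyk2, Stat2, Irf1 and Socs1), 0 fell, and the median log2 fold change was 0.23, beside 4.58% of all genes called higher and a median of 0.00. Stat2 was at 20.9, 10.2, 14.5 and 21.5 FPKM in WT and at 25.6, 33.8, 35.5 and 35.8 FPKM in Colec11-/- replicates 1 to 4. It shared with Slfn4 the lowest value in WT replicate 2 and the separation of the groups. On the log2 scale, Stat2 rose by 0.85 ± 0.22 (SE; edgeR adjusted p = 0.0442) and Irf1 by 0.82 (edgeR adjusted p = 0.0488, 7 libraries). Stat2 passed in 3 and Irf1 in 1 of the 8 fits without 1 library. The count of 4 was 0 without WT replicate 3 or Colec11-/- replicate 2 or 3, and 6 without WT replicate 2. It was 2 without WT replicate 1 or 4 or Colec11-/- replicate 1, and 1 without Colec11-/- replicate 4. Of all genes, 1.21% were called without WT replicate 3, 0.617% without Colec11-/- replicate 2 or 3, and 22.2% without WT replicate 2. Irf9, the DNA-binding partner of Stat2, differed by 0.38 (edgeR adjusted p = 0.126, 7 libraries), and Irf7, an amplifier of type I interferon, by 1.25 (edgeR adjusted p = 0.0538). The receptor chains Ifnar1, Ifnar2, Ifngr1 and Ifngr2 did not pass.

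Of the interferons themselves, 2 could be tested and neither passed. For both, the value of Colec11-/- replicate 1 came from the series-wide table and did not enter the fit. Ifnb1 was at 4.56, 1.59, 2.91 and 5.50 FPKM in WT and at 1.02, 0.60, 1.51 and 2.29 FPKM in Colec11-/- replicates 1 to 4, with an adjusted p of 0.128 from edgeR on 7 libraries. Ifng was at 2.49, 0, 0.12 and 0 FPKM in WT and at 3.59, 7.77, 6.11 and 2.15 FPKM in Colec11-/- replicates 1 to 4, with an adjusted p of 0.102 from edgeR on 7 libraries.

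Of 24 type I interferon targets tested, 5 rose (Oas3, Ddx58, Xaf1, Zbp1 and Ifi44) and 0 fell. The median log2 fold change was 0.77, and 24 of 24 were positive. For comparison with this list and the next, 4.58% of all genes were called higher, and the median of all genes was 0.00. Zbp1, a sensor of Z-form nucleic acid, rose by 1.42 on the log2 scale (edgeR adjusted p = 0.0353) and passed in 4 of the 8 fits without 1 library. Oasl2, the gene most like Slfn8, differed by 0.98 (edgeR adjusted p = 0.0537). Of 18 interferon gamma targets tested, 9 rose (Cxcl10, Gbp3, Irgm1, Irgm2, Igtp, Psmb9, Psmb10, Socs1 and Irf1) and 0 fell, with a median of 1.44. Without WT replicate 3 or Colec11-/- replicate 2 or 3, 0 genes of either list passed by edgeR. Those fits called 1.21%, 0.617% and 0.617% of all genes in either direction, against 9.81% with all libraries. Without WT replicates 2 and 4, 11 and 9 type I targets passed, and without Colec11-/- replicates 1 and 4, 2 and 0 did. Without WT replicates 1, 2 and 4, 15, 14 and 1 interferon gamma targets passed. Over all genes, the fits without WT replicates 1, 2 and 4 called 9.31%, 22.2% and 3.34%. Those without Colec11-/- replicates 1 and 4 called 5.47% and 9.07%. The Schlafen median of 0.41 was below that of both lists, and the difference between the lists was not tested. Socs1, Irf1, Irf7 and Usp18 each stand in 2 of these 3 lists.

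Because Slfn2 guards transfer RNA, genes of transfer RNA cleavage and ribosome rescue were examined too. Of 8 tested, 0 passed by edgeR or with DESeq2, 1 had an unadjusted p under 0.05 in edgeR, and the median log2 fold change was -0.08. With limma voom, 3 were called lower, where 14.5% of all genes were. Ang, encoding angiogenin, the enzyme that cleaves transfer RNA under stress, had a log2 fold change of -0.34 (edgeR adjusted p = 0.239), and its inhibitor Rnh1 one of -0.46 (edgeR adjusted p = 0.151), on 7 libraries.

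The genes next to the cluster were examined for comparison. Of 9 genes listed on both sides, 4 could be tested and 1 was called, where 9.81% of all genes were. Rffl, a ubiquitin ligase gene before Slfn5, fell by 0.55 on the log2 scale, with an adjusted p of 0.0269 from edgeR. It passed without WT replicates 1 or 2 or Colec11-/- replicate 4, and the adjusted p from edgeR was 0.0825 and 0.0626 without WT replicates 3 and 4 and 0.0542, 0.093 and 0.0586 without Colec11-/- replicates 1 to 3. Rad51d (0.18) and Nle1 (-0.11) before the cluster, and Ap2b1 (0.03) after it, did not pass. Slfn4 and Slfn3 are direct neighbours within the cluster, and their log2 fold changes were 1.03 and 0.09.

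**Figure D5:**
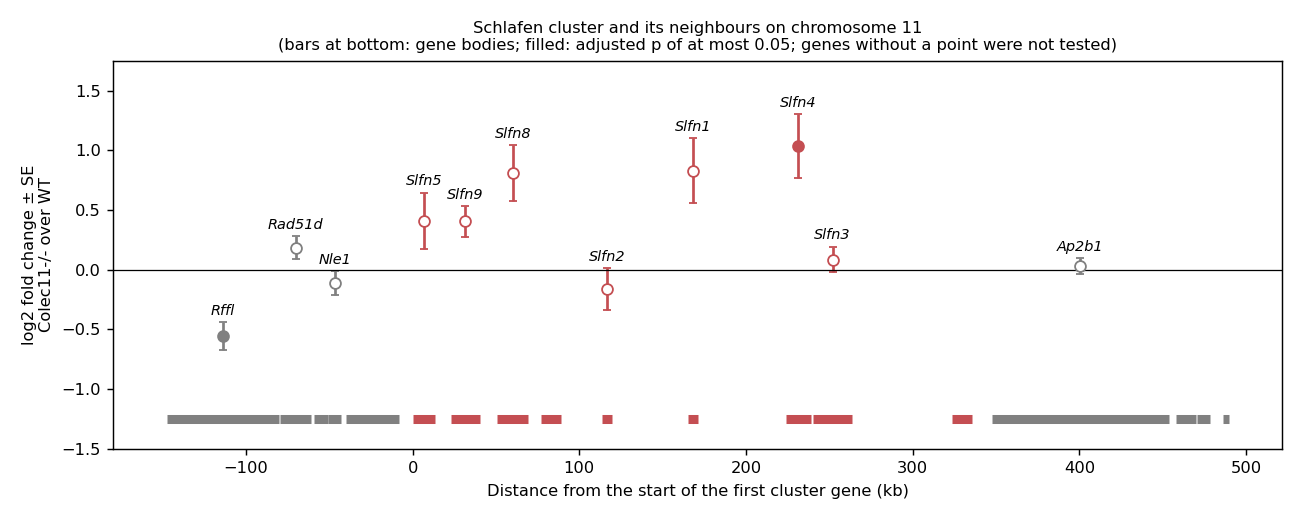
Log2 fold change (± SE, edgeR) of the Schlafen genes (red) and of the tested genes beside the cluster (grey) against the distance in kb from the start of the first cluster gene; bars at the bottom are gene bodies, and filled points have an adjusted p of at most 0.05. Slfn4 (1.03) and Rffl (-0.55) are filled, and Slfn2 and Slfn3 lie near 0 between or beside members with larger values.

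Colec11 itself was at 0 to 4 reads in every library, too low to check the genotype in these cells. Markers of the labelled cell type were high: Adgre1, which encodes F4/80, was at 182 to 239 FPKM and Csf1r at 209 to 284 FPKM in the 7 libraries with a value. Of 9 macrophage markers, 0 rose and 1, Mrc1, fell, with a median log2 fold change of -0.19 and 4 of 9 positive. The list summed to 9255 to 11654 CPM in WT and to 8468 to 10139 CPM in the 3 Colec11-/- libraries with all values. Cd68 differed by -0.55 (edgeR adjusted p = 0.0732), Mertk by -0.35 (edgeR adjusted p = 0.0557) and Fcgr1 by 0.49 (edgeR adjusted p = 0.0963), each on 7 libraries.

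Some markers of other cells rose alongside Slfn4. For comparison with each marker list, 4.58% of all genes were called higher and 5.24% lower, with a median log2 fold change of 0.00. An unadjusted p under 0.05 in edgeR was found for 30.7% of all genes, and DESeq2 called 18.2% in either direction. Of 10 T cell markers, 2 rose (Cd2 and Themis) and 0 fell, while the median log2 fold change was 2.61 and 9 of 10 were positive. The summed level was 9.06 to 28.8 CPM in WT and 31.4 to 77.7 CPM in the 3 Colec11-/- libraries with all values. No T cell marker was at 0 in all libraries. Within WT, the T cell sum was highest in WT replicate 1, at 28.8 CPM, and lowest in WT replicate 2, at 9.06 CPM. Slfn1, Slfn4 and Slfn8 were highest in WT replicate 4, at a T cell sum of 10.6 CPM. They were next highest in WT replicate 1, which was close for Slfn1, and lowest in WT replicate 2. Of the 3 Colec11-/- libraries with sums, replicate 4 had the lowest sum, 31.4 CPM, and the lowest Slfn1, Slfn4 and Slfn8. Of 3 NK cell markers tested, 1 rose (Eomes), the median log2 fold change was 2.59 and 3 of 3 were positive. The NK cell list summed to 0.172 to 7.77 CPM in WT and to 6.31 to 19.1 CPM in the 3 Colec11-/- libraries. The part of T and NK cells in the Schlafen values was not tested.

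Of 7 monocyte markers, 2 rose (Ly6c2 and Plac8) and 1 fell (Fn1), with sums of 1634 to 3561 CPM in WT and 965 to 1282 CPM in the 3 Colec11-/- libraries. The sum and the median of this list went opposite ways, since the median log2 fold change was 0.82 and 4 of 7 were positive, while Fn1, the most abundant of the list in WT, was at 225 ± 91.8 FPKM in WT and at 89.0 ± 29.6 FPKM in Colec11-/- (SD, n = 4 each). Of 5 neutrophil markers tested, 1 rose (S100a8), which was at 73.5 FPKM in Colec11-/- replicate 1 and at 9.13 to 15.8 FPKM in the other 3. The list summed to 99.0 to 180.1 CPM in WT and 122 to 129 CPM in the 3 Colec11-/- libraries with all values. Ngp was at 0. These sums leave out Colec11-/- replicate 1, the library with the most S100a8. S100a9 was at 80.03 FPKM in that library and at 5.09 to 13.29 FPKM in the other 3. In WT it was at most at 4.37 FPKM, and it did not pass (edgeR adjusted p = 0.0739). Of the 5 tested, 4 had a positive log2 fold change, and Mmp8 had one of -1.22 (edgeR adjusted p = 0.0603, 7 libraries). Slfn4 was at 39.3 FPKM in Colec11-/- replicate 1, and the part of neutrophils in the Schlafen values was not tested. Of 6 melanoma markers, 0 passed by edgeR, although 5 had an unadjusted p under 0.05 and 4 passed with DESeq2, and the median log2 fold change was 0.57, with sums of 3813 to 7871 CPM in WT and 6972 to 8592 CPM in the 3 Colec11-/- libraries. WT replicate 2 had the highest melanoma sum of the WT libraries and the lowest Slfn1, Slfn4, Slfn5 and Slfn8. The part of melanoma RNA in these values was not tested.

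Of 2 B cell and 7 dendritic cell markers tested, 0 and 1 (Xcr1) rose and 0 fell, with sums of 4.53 to 7.24 and 14.4 to 32.7 CPM in WT and of 5.90 to 10.3 and 20.1 to 23.6 CPM in the 3 Colec11-/- libraries. Of the B cell markers 1 had an unadjusted p under 0.05 and 0 passed with DESeq2. Of 4 fibroblast and 4 endothelial markers tested, 0 passed by edgeR, 0 and 1 had an unadjusted p under 0.05 and 0 and 1 passed with DESeq2, with sums of 11.002 to 31.4 and 20.3 to 37.3 CPM in WT and of 13.9 to 22.7 and 36.8 to 45.5 CPM in the 3 Colec11-/- libraries. Over the 10 marker lists, 9 genes passed, where 9.81% of all genes tested were called in either direction. Without WT replicate 3 or 4 or Colec11-/- replicate 2 or 3, 2 to 3 markers passed. Those fits called 1.21%, 3.34%, 0.617% and 0.617% of all genes. Without Colec11-/- replicate 1, 6 markers passed (5.47% of all genes). Without WT replicates 1 and 2, 17 and 24 passed (9.31% and 22.2% of all genes).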

How the data were processed

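RNA-Seq of sorted TAMs was performed in 4 WT and 4 Colec11-/- libraries. Per the labels' processing notes, the authors used HISAT2 2.0.4, Bowtie2 2.2.5 and RSEM 1.2.12 with GRCm38.p6. They deposited estimated counts (expected counts from RSEM) and FPKM per library, and TPM in some tables. The deposited TPM was not used here. Replicates were not pooled. A table of the whole series holds the authors' fold changes and q-values, which were not used, beside counts that were equal to those of Colec11-/- replicate 1 for 2808 of 2808 genes. The table of that library did not list 5311 of the genes, so other genes were tested on 7 libraries, while all 7 members were tested on 8.

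Estimated counts were rounded, filtered with filterByExpr, TMM-normalised and fitted with edgeR 4.0.16 (R 4.3.3) by the quasi-likelihood test on group. P-values were adjusted by Benjamini-Hochberg over all 12412 genes. CPM was computed from TMM library sizes. Alternatives used DESeq2 1.42.0 and limma 3.58.1, other filters, pseudocounts of 1 and 0.1, the replicate block and each library left out. Reads on genes were 16225362 to 17280267 in the 7 complete libraries and 10061535 to 10607640 over the 12572 genes of all 8. Replicates were not near-copies of each other (chi-square per degree of freedom 6.16 to 30.0). Tested on simulated data of 9404 genes, the fit recovered 99.0% of genes changed 4-fold and called 8 unchanged genes. Changes as small as those of the members were not simulated. The number of columns mapped to no sample was 0.

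The members and gene lists were chosen with earlier results of these data known. Named genes were all members, the other Schlafen genes, list genes that passed and fixed signaling genes, cluster neighbours and the 3 genes most like each member; other list genes named were chosen after their values were seen. A few genes are not reported here and were left out of the lists and neighbours. Promoter sequences came from RefSeq, where all 7 members matched.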

Additional observations from a re-analysis of the deposited data

Results flagged for a closer look

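Among 35 groups of 4 values, 1 stood apart from the rest of its group, where chance gives about 1.8. Ifng was at 2.49 FPKM in WT replicate 1 and at 0 to 0.12 FPKM in the other 3 WT libraries, a gap of 0.952 of the group's range. No Schlafen value stood apart in this way. Slfn1, Slfn4 and Slfn8 in WT replicate 1 were at 19.96, 18.4 and 14.8 FPKM, below or close to WT replicate 4.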

How the results depend on the processing

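Slfn4 passed in 8 of 9 fits with another method, filter or block, the exception being the fit in which missing genes of Colec11-/- replicate 1 were taken from the series-wide table (log2 fold change 1.02, adjusted p = 0.0509), and in 2 of the 8 edgeR fits without 1 library. Slfn2, Slfn3 and Slfn5 passed in 0 of these 17 fits. Slfn1 passed with DESeq2 (0.83), limma voom (0.78) and limma on log2(FPKM + 1) (0.99) and on log2(FPKM + 0.1) (1.04). Slfn8 passed with the same 4 tests (0.81, 0.76, 0.93 and 0.98) and without a filter (0.81), and Slfn9 with DESeq2 (0.41) and limma voom (0.46). The number of members called higher was 4 with DESeq2 and with limma voom, 3 with either limma fit on FPKM, 2 without a filter, and 0 with the library filled or at an adjusted p of at most 0.01, against 1 as reported. Over all genes 1218 were called, 2253 with DESeq2 and 3625 with limma voom.

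Without 1 library each, the log2 fold changes ranged from 0.59 to 1.03 for Slfn1, from -0.28 to 0.0031 for Slfn2 (reversed without WT replicate 4), from 0.02 to 0.16 for Slfn3, from 0.80 to 1.29 for Slfn4, from 0.21 to 0.66 for Slfn5, from 0.61 to 1.02 for Slfn8 and from 0.34 to 0.50 for Slfn9. The number of members called higher ranged from 0 to 3, JAK-STAT genes from 0 to 6, type I targets from 0 to 11, interferon gamma targets from 0 to 15, markers from 2 to 24, cluster neighbours from 0 to 1, and the genes of the transfer RNA list called lower stayed at 0. Over all genes the calls ranged from 77 without Colec11-/- replicate 2 or 3 to 2755 without WT replicate 2.

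Over all genes, DESeq2 called 8.71% higher and 18.2% in either direction, and limma voom 14.7% and 29.2%. In either direction, limma on FPKM (pseudocounts 1 and 0.1) called 10.7% and 10.3%. The fit without a filter called 7.42%, and the fit with the library filled 8.95%. Type I targets called were 15 with DESeq2, 17 with limma voom and 14 and 13 with limma on FPKM. They were 10 without a filter, 2 with the library filled and 3 at a fold of at least 2. Interferon gamma targets were 14 with DESeq2, 16 with limma voom and 15 and 14 with limma on FPKM. JAK-STAT genes were 6 with DESeq2, with limma voom, with either limma fit on FPKM and without a filter, against 4 as reported. They were 1 with the library filled and 1 at a fold of at least 2. Markers were 26 with DESeq2, 33 with limma voom, 21 and 20 with limma on FPKM and 4 at 10 or more counts in every library. Genes of the transfer RNA list called lower were 3 with limma voom, against 0 as reported. A fold of at least 2 left 0 cluster neighbours. At an adjusted p of at most 0.01, 0 genes of the interferon lists, markers and neighbours passed. The cause of these moves was not tested.

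The replicate numbers did not pair the samples: the correlations of same-numbered libraries' deviations were -0.32, 0.02, -0.24 and 0.26, and 0 of the 4 numbers matched best with its own. With the replicate block, 1080 genes were called, Slfn4 had a log2 fold change of 1.14 (edgeR adjusted p = 0.0412), 1 member was called higher, and the counts were 3 JAK-STAT genes, 1 of the transfer RNA list and 19 markers. Summed with Slfn8, the log2 ratio of Slfn9 moved from 0.40 to 0.62. The sum of Slfn3 and Slfn4 is mostly Slfn4 (mean 108 against 17.5 CPM in WT) and was not read for Slfn3. Slfn14, Slfnl1 and Colec11 were too low to be tested at this depth.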
